A study of Mus musculus with 10 samples.

Results

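The infrarenal aorta of sham-operated mice was compared with a universal mouse reference RNA on 5 of the 10 two-colour arrays of the series, each array carrying the RNA of 1 aorta. The 5 arrays were chosen by their labels as sham, and the 5 arrays of aortae infused with porcine pancreatic elastase (PPE) were not used. The mice were male C57BL/6J animals of 10 weeks on a normal diet. Saline was infused into the clamped infrarenal aorta for 5 min at 100 mmHg through a cut at the bifurcation, and the segment below the left renal artery was taken after 7 days. A sham aorta is therefore an operated and pressurised vessel and not an untouched one. Per the study's methods it was freed of fat and connective tissue under a microscope before freezing, and how much of them remained was not measured. Red dye (Cy5) marked 500 ng of aortic RNA, and green dye (Cy3) marked the reference. The dyes were not swapped, so a dye bias of a single probe and a true difference between aorta and reference cannot be told apart.

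The wall of the aorta is built from smooth muscle cells between sheets of elastin, with an endothelium on the inside and a sleeve of fibroblasts, fat, small vessels and nerves on the outside. In an uninjured adult animal nearly all of these cells are at rest, and cell division was not measured in these operated aortae. The reference is a pool of RNA from mouse cell lines, which divide in culture, so each ratio sets a tissue of many cell types against a mixture of growing cells. In such bulk samples, fewer cells of a type and less RNA per cell cannot be told apart.

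All values below are log2 ratios of red over green unless another quantity is named, so that 1 stands for a 2-fold higher signal in the aorta and -1 for a 2-fold lower one. A gene name was tested where its probe was well above background in either colour on at least 3 of the 5 arrays, which left 24503 names, of which 17203 matched a RefSeq gene and 3215 were long intergenic noncoding RNA (lincRNA) regions. A name was called higher or lower where the limma test of its mean ratio against 0 gave a Benjamini-Hochberg adjusted p under 0.01 and the mean was at least 1 or at most -1. Errors are SDs over the 5 arrays. With 5 arrays, an exact sign-flip test of a single gene cannot go below a two-sided p of 0.0625. Smaller limma p-values rest on its model of the errors, which combines a name's own spread with that shared across all names.

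The arrays were those kept after the authors' checks for quality and outliers. They agreed closely across names, with correlations between 0.873 (sham 3 against sham 5) and 0.969 and a median of 0.940 over the 10 pairs. The share of spots with red signal above background lay between 37.6% on sham 5 and 62.1% on sham 1, and replicate probes varied more on sham 4 than elsewhere (a coefficient of variation of 17.1% in red, against 5.43% to 7.90% on the others). Per the file headers, sham 1 was scanned on another day than the other arrays. Its median green signal was the lowest (78.8, others between 133 and 162). A trait of sham 1 alone therefore cannot be told apart from its scan day. Zero on the ratio scale is the middle of each array and not a measure of equal RNA. On the deposited ratios the 10 spike-in controls put equal amounts at a log2 value between -2.60 (sham 3) and -0.41 (sham 5), and with the spike-ins setting zero and slope the median over all names moved to 1.46. Without any normalization it moved to -0.90. Directions of gene lists are therefore given relative to the median of all names tested, which was 0.00 on the scale used here.

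The 4 genes that mark the tissue were all called higher in the aorta, as were 13.2% of all names tested. Tagln (transgelin, an actin-binding protein of smooth muscle; probe at chr9:45738097-45738156 on mm9) read 5.41, 5.49, 4.94, 5.34 and 5.04 on sham 1 to 5, with a mean of 5.25 ± 0.24 (SD, n = 5; limma adjusted p = 4.66e-07). Myh11 (smooth muscle myosin heavy chain, chr16:14202190-14202249) read 5.32, 4.28, 3.88, 4.93 and 4.54, and Acta2 (smooth muscle alpha-actin, chr19:34316060-34316119) read 4.43, 4.47, 3.91, 4.70 and 3.98. Cdh5 (VE-cadherin of endothelial junctions, chr8:106668159-106668218) read 5.38, 4.41, 3.83, 4.63 and 3.69. Sham 3 was the lowest array for the 3 smooth muscle genes and sham 1 the highest for Myh11 and Cdh5, and no array came near 0. The reference signal of Cdh5 was above background on 4 of the 5 arrays. The Y-linked genes Eif2s3y (2.47 ± 0.14) and Ddx3y (1.67 ± 0.12) were higher in the male aortae, and Xist, the RNA that coats the inactive X of female cells, was not above background in red on any array and read -2.21 ± 0.68.

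Of the 24503 names, 3243 were higher in the aorta (13.2%) and 2497 were lower (10.2%), so that 23.4% were called in either direction. On the scale used here, large differences lay mostly on the aortic side. A ratio of at least 4 was reached by 215 names, whereas 38 names lay at -4 or below. This balance depends on processing, with 56.5% of calls higher here, 47.1% on the deposited ratios and 11.2% with median centring. A signal at background also limits how far a ratio can reach, and 288 names were above background in green only against 83 in red only. On all 5 arrays the sign of the call was kept by 5718 of the 5740 called names. They are coloured in the plot of ratio against brightness.

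**Figure D1:**
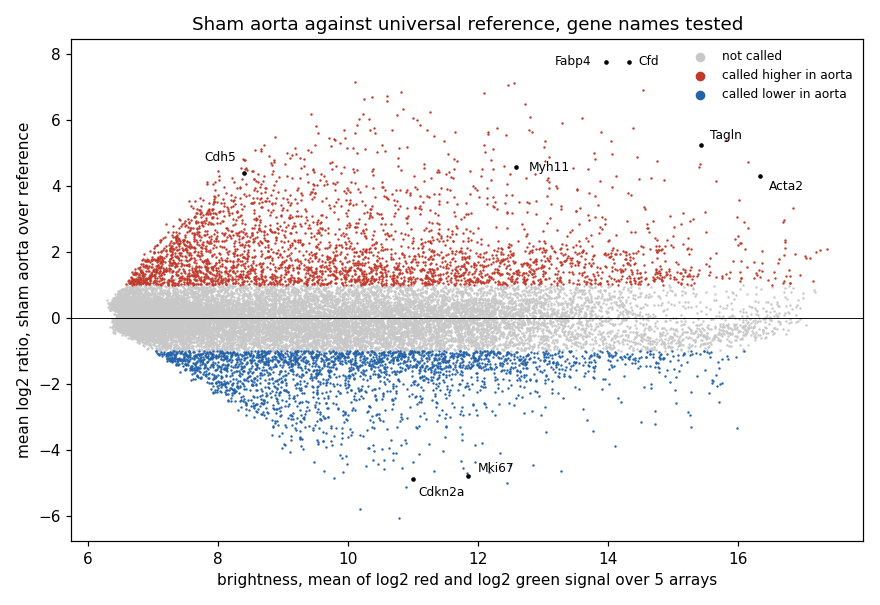
Mean log2 ratio of sham aorta over reference (vertical axis) against brightness, the mean of log2 red and log2 green signal (horizontal axis), for each gene name tested, over 5 arrays. Red points are the 3243 names called higher in the aorta, blue points the 2497 called lower, grey points the rest, and black points 8 named genes. The cloud reaches further above 0 than below it, with 80 called names at 5 or higher and 4 at -5 or lower, and the ratios of dim names lie nearer to 0.

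Among genes above background in both colours on all 5 arrays, the 10 highest ratios began with a pair of genes of fat cells. Cfd (adipsin, a complement factor secreted by fat cells) read 8.54, 7.35, 7.17, 7.84 and 7.93, a mean 218-fold above the reference. Fabp4 (the fatty acid binding protein of fat cells and capillary endothelium) followed with 8.21, 7.46, 7.28, 8.08 and 7.71. Both were thus higher by more than 7 on the log2 scale on every array. Itga8 (integrin alpha 8, an adhesion receptor of smooth muscle) averaged 7.12 ± 0.46, Sparcl1 (a matrix glycoprotein) 7.05 ± 0.45 and Mgp (matrix Gla protein, an inhibitor of calcification of arteries) 6.92 ± 0.25. The rest of the 10 were Susd5 (6.85 ± 0.54), Pck1 (6.83 ± 0.40; an enzyme of gluconeogenesis and of glycerol synthesis in fat), Sh3bgr (6.73 ± 0.57), Synpo2 (6.71 ± 0.62; an actin-binding protein of smooth muscle) and Ptprb (6.64 ± 0.67; the endothelial tyrosine phosphatase VE-PTP). The 10 lowest ratios began with a pair of genes of the cell cycle. Cdkn2a, the locus of the inhibitors p16 and p19Arf, read -5.42, -4.86, -4.83, -5.24 and -4.11. Mki67, the antigen of dividing cells, read -5.64, -4.64, -4.58, -4.88 and -4.29. Sham 5 was the array nearest to 0 for both. Next came Msln (mesothelin, -4.69 ± 0.37), Birc5 (survivin, -4.67 ± 0.57), Dlk1 (an imprinted ligand of preadipocytes and embryonic tissue, -4.66 ± 0.33), Uhrf1 (which guides maintenance DNA methylation, -4.58 ± 0.54), Rrm2 (ribonucleotide reductase, -4.56 ± 0.41), Cenpe (a kinetochore motor, -4.55 ± 0.69), Rhox5 (a homeobox gene of the testis, -4.51 ± 0.57) and Krt8 (a keratin of simple epithelia, -4.38 ± 0.43).

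On all 5 arrays, 83 names were above background in red only and 288 in green only, and for these a fold is a lower bound. Acvr1c (the activin receptor ALK7, found in fat) was at least 17.4-fold higher in the aorta, Bex4 at least 16.5-fold, Wif1 (a secreted inhibitor of Wnt signals) at least 14.5-fold, Lyve1 (a hyaluronan receptor of lymphatic endothelium and of resident macrophages) at least 14-fold, Epha3 at least 10.73-fold, Mup9 at least 9.14-fold, Rai2 at least 7.08-fold and B3galt2 at least 6.82-fold. In the other direction, the chemokine Cxcl5 was at least 16.4-fold lower in the aorta, the mitotic kinase Bub1 at least 14.2-fold, 9530002K18Rik at least 14-fold, 4930550L24Rik at least 7.73-fold and the mesothelial factor Bnc1 at least 6.84-fold, and Gm10439, Ssxb10 and Fut1 were between 5.52-fold and 5.64-fold lower at least.

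Gene lists were described by how many members were called and by the median ratio, beside 13.2% higher, 10.2% lower and a median of 0.00 over all names. The lists spread from a median of 4.99 for adipocytes to -2.98 for mitosis, as the plot of list medians by array shows.

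**Figure D2:**
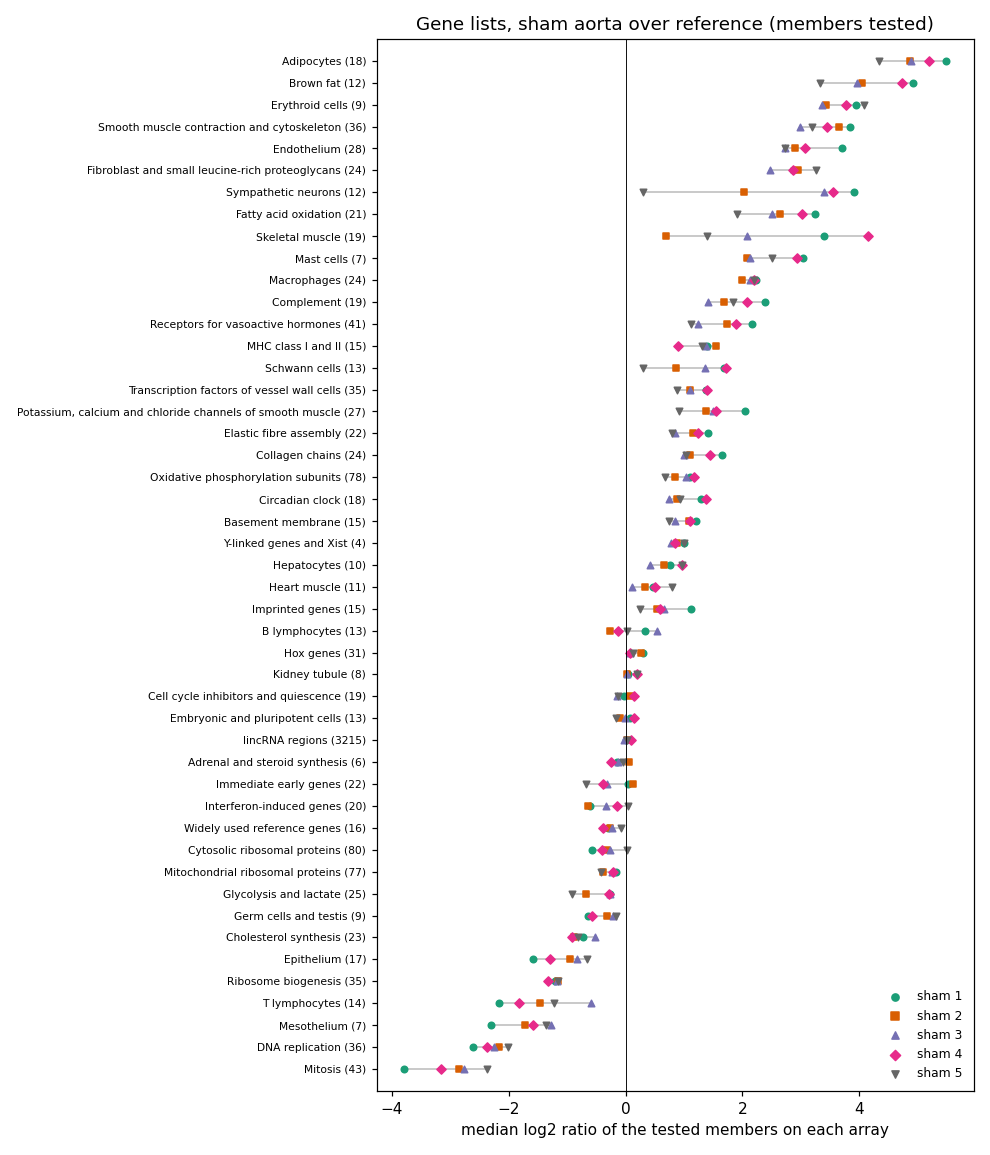
Median log2 ratio of the tested members of each gene list on each of the 5 sham arrays (horizontal axis, 1 symbol per array), lists in the order of their median, with the number of members tested in brackets. The grey lines span the 5 arrays. The spans are widest for sympathetic neurons (0.30 to 3.91) and skeletal muscle (0.69 to 4.14).

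Contraction and cytoskeleton of smooth muscle formed the list of the medial layer, with 34 of 36 members higher, none lower and a median of 3.58. Besides the markers, these included Aoc3 (6.16 ± 0.51; a vascular amine oxidase), Cnn1 (calponin, 5.74 ± 0.35), Pdlim3 (5.71 ± 0.54), Rgs5 (5.64 ± 0.60; a brake on G protein signals in pericytes and smooth muscle) and Myl9 (the regulatory myosin light chain, 5.39 ± 0.38). Myl9 read 5.76, 5.5, 5.02, 5.71 and 4.95. Lower in the list stood Actn1 (1.47), Vcl (vinculin, 1.31) and Tpm1 (1.74), the last beside 3.72 for its relative Tpm2. The probes of Tpm1, whose transcripts are spliced in many ways, ranged from -0.92 to 1.74. Ppp1r12b (-0.05) was not called, and neither was Pln (phospholamban, 0.79), which had no reference signal above background and whose value depended on how background was treated. Pln was called higher with an offset of 16 (1.28), with plain subtraction (2.5) and on the deposited ratios (3.77). The coactivator of the contractile programme, Myocd (myocardin), was higher (3.60 ± 1.13). It read 4.97, 4.41, 2.05, 3.32 and 3.26, with a reference signal above background on 3 of the 5 arrays. Its DNA-binding partner Srf read 0.68 ± 0.36 and was not called, and the related coactivator Mkl1 was lower (-1.25 ± 0.14).

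Srf binds the CArG box, the letters CC and GG around 6 bases of A or T. It lay within 250 bases before to 50 bases after the start in 4 of the 30 smooth muscle genes of the list that had a RefSeq promoter (13.3%), and in 1.81% of all 27025 genes. The boxes of these 4 genes are shown since they are the only ones found in the list. Windows are on the strand of the gene (GRCm38.p6), 5′ to 3′, with the box in capitals, at chr2:156775293-156775322 (Myl9, plus strand), chr14:34588697-34588726 (Ldb3, minus strand), chr10:128493040-128493069 (Myl6, minus strand) and chr14:20929161-20929190 (Vcl, plus strand).
Myl9: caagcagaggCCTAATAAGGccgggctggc
Ldb3: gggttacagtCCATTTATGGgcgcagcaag
Myl6: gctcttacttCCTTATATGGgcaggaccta
Vcl: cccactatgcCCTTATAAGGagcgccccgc
The ratios of these 4 genes ran from 5.39 for Myl9 over 3.62 for Ldb3 and 2.92 for Myl6 to 1.31 for Vcl. Many such boxes lie further from the start than this window, so a gene without a match is only without these letters here.

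Among transcription factors of vessel wall cells, 18 of 35 were higher and 3 lower (median 1.19). Heyl (4.82 ± 0.53) and Hey2 (3.60 ± 0.70), which Notch signals induce, were higher, whereas Hey1 read 0.58 ± 0.09 and was not called. Meox2 (3.38 ± 0.31), Klf15 (3.51 ± 0.62), Ebf2 (3.87) and the shear stress factor Klf2 (3.12 ± 0.56) were higher. Klf2 was split by array, with 3.70, 3.20 and 3.60 on sham 1 to 3 and 2.55 and 2.54 on sham 4 and 5. Prrx2 (-1.92 ± 0.37) and Twist2 (-1.01 ± 0.23), both of embryonic mesenchyme, were lower. The call of Twist2 was lost without sham 2 (-1.0) or sham 3 (-0.94).

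Receptors for vasoactive hormones were higher for 26 of 41 members and lower for 2 (median 1.60). Both subunits of the nitric oxide receptor were among the highest of them, Gucy1a3 with 6.29, 5.32, 4.91, 5.56 and 5.15 and Gucy1b3 with 6.07, 4.80, 4.76, 3.88 and 4.67. Sham 1 was highest for both. The adrenergic receptors Adra2a (4.22 ± 0.44) and Adra1d (1.60 ± 0.47), the endothelin receptors Ednra (2.92 ± 0.44) and Ednrb (2.15 ± 0.67) and the purine receptor P2rx1 (3.80 ± 0.61) were higher. So were both mouse angiotensin receptors of type 1. Agtr1b averaged 2.90 ± 0.69, and Agtr1a read 2.85, 2.02, 4.10, 3.44 and 0.79, with sham 5 far below the others. The prostacyclin receptor Ptgir read 0.00 ± 0.22. Ramp1 (3.86 ± 0.28) and Ramp2 (4.17 ± 0.35), the partners of the calcitonin-like receptor, were higher and their relative Ramp3 was lower (-1.51 ± 0.39), as was the adenosine receptor Adora2b (-1.60 ± 0.44). The ion channels of smooth muscle were higher for 17 of 27 members and lower for 2 (median 1.18). The pore of the vascular KATP channel, Kcnj8, averaged 2.74 ± 0.55 and its sulfonylurea receptor Abcc9 5.01 ± 0.52. The large-conductance potassium channel was higher in both its pore Kcnma1 (3.37 ± 0.58) and its smooth muscle subunit Kcnmb1 (2.89 ± 0.44). Of the ryanodine receptors, Ryr2, not above background in the reference on any array, was at least 4.47-fold higher and Ryr3 was lower (-1.59 ± 0.37), and the calcium channel subunit Cacnb3 was lower (-1.37 ± 0.16).

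The genes of elastic fibres split in 2 directions. Of 22 members, 11 were higher and 3 lower (median 1.05). Eln (tropoelastin) read 3.84, 3.37, 2.85, 3.76 and 3.59, and the microfibril protein Mfap4 read 5.69, 5.70, 5.22, 6.02 and 5.58. Both were far above 0 on every array. Fbln5 (fibulin 5, needed to build elastic fibres, 3.53 ± 0.23) and Fbn1 (fibrillin 1, 1.94 ± 0.32) were higher, whereas Fbn2, the fetal fibrillin, averaged 0.13 ± 0.07. Fbn2 was dim in both colours, above background in red on 3 arrays and in green on 4. The crosslinking enzymes differed, with Loxl1 higher (1.65 ± 0.33) and Lox lower. Lox read -0.97, -1.40, -1.13, -1.17 and -1.41. Fbln2 (-1.33 ± 0.25) and Efemp1 (fibulin 3, -2.0 ± 0.14) were lower too, on all arrays. The call of Lox lay close to the 2-fold limit.

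Of 24 collagen chains, 12 were higher and 2 lower (median 1.04). The fibrillar chains Col3a1 (2.85 ± 0.20), Col1a2 (2.37) and Col1a1 (1.98 ± 0.20) were higher, and Col14a1 (4.65 ± 0.31), which binds fibrils, was highest. All 6 chains of the network collagen IV were higher, from 1.83 for Col4a2 to 3.40 for Col4a6, with 2.24 for Col4a1. Collagens V and VI did not reach the 2-fold limit (0.62 to 0.98 for the 5 chains tested). Col7a1, which anchors epithelia, was lower (-1.67 ± 0.13), as was Col8a1 (-1.05 ± 0.20). Of the laminin chains, Lama4 (5.60 ± 0.57) and Lama2 (3.16) were higher, and Lamb3, a chain of epithelia, was lower (-1.93 ± 0.37). Of 15 basement membrane genes, 7 were higher and Lamb3 was the only 1 lower (median 0.97).

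Fibroblasts and their small proteoglycans were higher for 21 of 24 members and lower for 1 (median 2.86). Lum (lumican) read 6.17, 6.46, 5.37, 6.03 and 7.17, and Dcn (decorin) read 4.73, 4.30, 4.47, 4.69 and 4.74. Sham 5 was the highest array for both. Pi16 (5.71 ± 0.38), a marker of adventitial fibroblasts, and Dpt (dermatopontin, 3.17 ± 0.32) were higher. The receptor Pdgfrb was higher (2.33 ± 0.29), whereas Pdgfra averaged -0.18 ± 0.17. S100a4, which migrating fibroblasts express, was lower (-1.81 ± 0.54).

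The endothelium was higher for 26 of 28 members with none lower (median 3.03). Mmrn2 (an endothelial matrix protein, 6.03 ± 0.39), Cldn5 (claudin 5 of tight junctions, 4.61 ± 0.55), Vwf (von Willebrand factor, 4.44 ± 0.44) and Nos3 (endothelial nitric oxide synthase) were among them. Nos3 read 3.68, 3.71, 3.07, 3.63 and 3.62, with sham 3 below the others. Of the receptors for vascular endothelial growth factor, Flt1 was higher (1.37 ± 0.38), whereas Flt4 averaged 0.34 ± 0.22 and was not called. Flt4 was dim in both colours, above background in red on 3 arrays and in green on 1. The probes of Kdr disagreed. The brighter one, used here, averaged -0.07 ± 0.44, and the other averaged 4.02, so no direction is given for Kdr.

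Fat gave the highest medians of all lists. All 18 adipocyte genes were higher (median 4.99), among them Plin1 (perilipin, the coat of lipid droplets, 6.01 ± 0.58) and Adipoq (adiponectin), which read 5.76, 5.30, 4.91, 6.25 and 5.53. Leptin (Lep) was lowest in the list at 1.21 ± 0.73. It read 2.39, 0.74, 1.2, 1.24 and 0.49 and was above background in red on 4 arrays, and its call was lost without sham 1 (0.92), sham 3 (1.21) or sham 4 (1.2). Brown fat genes were higher for 11 of 12 members (median 4.28). Ucp1, the uncoupling protein by which brown fat makes heat, read 6.51, 5.75, 5.39, 6.02 and 5.92, and Cidea read 6.71, 5.93, 5.70, 5.95 and 5.99. Sham 1 was highest and sham 3 lowest for both, and no array came near 0. Prdm16 (4.50 ± 0.61), a factor that directs brown fat identity, and the beta-3 adrenergic receptor Adrb3 (5.23 ± 0.35) were higher. Ppargc1a, a transcriptional coactivator, was called at 1.31 ± 0.65 while another of its probes averaged 0.50. The median ratio of the adipocyte genes was thus above that of smooth muscle genes (3.58) in the tissue labelled infrarenal aorta. A ratio to the reference is not an amount in the tissue. The log2 red signal was 18.5 for Acta2 and 18.2 for Cfd, and the log2 green signal was 14.2 and 10.4. The part of fat in other results was not tested.

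Nerve and striated muscle genes varied most between the arrays. All 12 genes of sympathetic neurons were higher on average (median 2.76), but the list's median was 3.91, 2.03, 3.40, 3.54 and 0.30 on sham 1 to 5. Of these 12 genes, 3 were above background in both colours on all 5 arrays. Th (tyrosine hydroxylase, the first step of noradrenaline synthesis) read 3.89, 2.26, 3.25, 3.96 and 0.36, and Slc6a2 (the noradrenaline transporter) read 4.44, 1.81, 4.66, 3.97 and 0.39. Dbh (2.85 ± 1.2), which makes noradrenaline, and Npy (2.77 ± 1.44), its cotransmitter, showed the same low arrays. Sham 5 was lowest for all of these, below 1 on each, and sham 2 was below the other 3. The Schwann cell gene Ngfr behaved likewise, with 4.54, 2.68, 3.91, 4.61 and 0.38, whereas S100b read 4.60, 4.04, 3.57, 4.06 and 4.01 and was not lower on sham 5. Several of these calls were lost with 1 array fewer, though the means stayed above 2. Slc6a2 was no longer called without sham 1 (2.71), sham 3 (2.65) or sham 4 (2.83), and Th (2.44) and Ngfr (2.88) without sham 4.

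Skeletal muscle genes were higher for 12 of 19 members (median 2.46), and their list median was 3.39, 0.69, 2.09, 4.14 and 1.39. Ckm (muscle creatine kinase) read 3.39, 0.66, 2.09, 5.08 and 1.10, Ttn (titin) read 4.06, 0.81, 3.62, 5.84 and 2.01, and Myh4 (a fast myosin) read 4.84, 3.29, 3.55, 5.03 and 2.62. Sham 4 was highest and sham 2 or sham 5 lowest for each. Members that averaged near or below 0, such as Actn3 (-0.66 ± 1.41) and Eno3 (-1.24 ± 1.02), were above 0 on sham 4 alone and were called lower without it (-1.27 and -1.68). The call of Ckm was lost without sham 1 (2.23), sham 3 (2.56) or sham 4 (1.81), and that of Ttn without sham 1 (3.07) or sham 3 (3.18). The plot of 5 cell types shows these genes beside the markers of the wall, which lay well above 0 on all arrays.

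**Figure D3:**
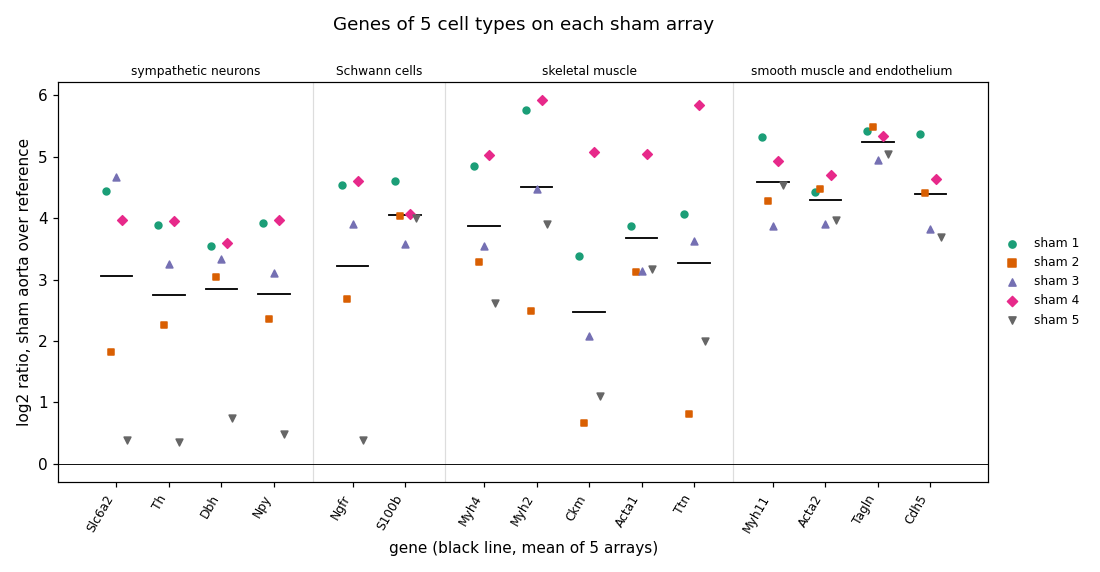
Log2 ratio of sham aorta over reference (vertical axis) on each of the 5 arrays for genes of sympathetic neurons, Schwann cells, skeletal muscle, smooth muscle and endothelium. Black lines are means. Sympathetic genes lie near 0 on sham 5 and skeletal muscle genes are highest on sham 4, whereas Tagln lies between 4.94 and 5.49 on all 5 arrays.

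Macrophage genes were higher for 16 of 24 members and lower for 2 (median 2.09), and the list's median differed little between arrays (2.0 to 2.23). Mrc1 (the mannose receptor CD206) read 5.23, 4.76, 4.47, 5.49 and 4.98, Clec10a averaged 4.96 ± 0.55, F13a1 4.51 ± 0.36, Folr2 3.65 ± 0.48 and the complement chain C1qa 3.67 ± 0.44. Emr1 (F4/80) averaged 0.52 ± 0.40 and was not called, and Cd68 (-1.35 ± 0.22) and Cd14 (-2.18 ± 0.21) were lower than in the reference on all arrays. Mast cells were higher for 6 of 7 members (median 2.45), with Kit at 4.19 ± 0.69 and the protease Cpa3 at 3.54 ± 0.34. Of these 7 members, 2 were above background in both colours on all 5 arrays. Kit had a reference signal above background on 1 array and Cpa3 on 2. Lymphocyte genes mostly were not higher. Of 14 T cell genes, 1 (Cd2, 1.32 ± 0.18, with 0.57 on another probe) was higher and 8 were lower (median -1.57), such as Lat (-2.75 ± 0.53), Lck (-2.0 ± 0.83) and Cd3e (-1.46 ± 0.36). Of 13 B cell genes, 2 were higher, among them Ebf1 (2.09), also a factor of fat and stroma, and 3 lower, with Blnk lowest at -2.72 ± 0.41. The B cell median, 0.30, was -0.03 without sham 3. Genes of red blood cells were higher, with Hba-a1 (alpha-globin) at 4.67 ± 0.35, Hbb-b1 (beta-globin) at 4.29 ± 0.30 and Alas2 (the haem enzyme of red cells) at 4.03 ± 0.57, while the erythroid factor Gata1 read 0.31 ± 0.29. Gata1 was above background in red on 3 arrays and not in green on any array.

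Complement was higher for 12 of 19 genes and lower for 1 (median 2.07). Besides Cfd, these included Cfb (3.94 ± 0.37) of the alternative pathway and C3 (2.07 ± 0.30), while Masp1 was lower (-1.0 ± 0.49), a call lost without sham 1 (-0.88), sham 2 (-0.99) or sham 4 (-0.89). Among genes of antigen presentation, 8 of 15 were higher (median 1.39). The class II chain H2-Aa averaged 4.78 ± 0.40 and the class I chain H2-K1 1.60 ± 0.18, whereas B2m (0.48 ± 0.25) and the peptide transporter Tap1 (-0.66 ± 0.24) were not called. Of 20 interferon-induced genes, 1 was higher (Ifit3, 1.21 ± 0.46), 5 were lower and 14 were not called (median -0.27). Ifi44 read -3.53, -3.0, -2.64, -3.35 and -1.65, and Usp18 averaged -2.36 ± 0.64.

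Energy metabolism differed between the aorta and the cell lines. Fatty acid oxidation was higher for 18 of 21 genes with none lower (median 2.71), with the fatty acid activating enzyme Acsl1 at 4.75 ± 0.49, the transcription factor Ppara at 4.05 ± 0.86 and the mitochondrial enzyme Hadhb at 3.23 ± 0.74. Of 78 subunits of oxidative phosphorylation, 38 were higher and none lower (median 0.98), a direction that turned relative to all names without loess normalization (-0.16 with median centring or no normalization at the lowest). Within complex I, all 36 subunits tested lay above 0. Glycolysis was mixed, with 4 of 25 genes higher and 9 lower (median -0.40), and members of 1 family often lay on opposite sides. The insulin-responsive glucose transporter Slc2a4 (GLUT4) read 5.62, 5.09, 4.73, 5.66 and 4.68, and the growth-related transporter Slc2a1 (GLUT1) read -2.73, -2.69, -2.92, -2.87 and -2.97. The pyruvate dehydrogenase kinase of fasting, Pdk4, averaged 5.05 ± 0.73 and Pdk1, which hypoxia induces, averaged -2.08 ± 0.16. The lactate dehydrogenase chain of oxidative tissues, Ldhb, averaged 2.19 ± 0.54 and Ldha -1.26 ± 0.29. No array crossed 0 in any of these 3 pairs. Of 14 cytochrome oxidase subunits (complex IV), 7 were higher and none lower. The muscle and brown fat forms Cox8b (6.47 ± 0.56) and Cox7a1 (4.38 ± 0.39) had larger differences than the ubiquitous forms Cox8a (1.23 ± 0.19) and Cox7a2 (0.50 ± 0.18), which were both below 0 with median centring. The muscle form Cox6a2 read -0.33, -2.52, -0.13, 1.83 and -0.32, above 0 on sham 4 alone, and was not called. Cholesterol synthesis was lower for 8 of 23 genes with none higher (median -0.81), led by Sqle (-1.96 ± 0.41). These pairs, with cell cycle inhibitors and clock genes, are shown by array.

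**Figure D4:**
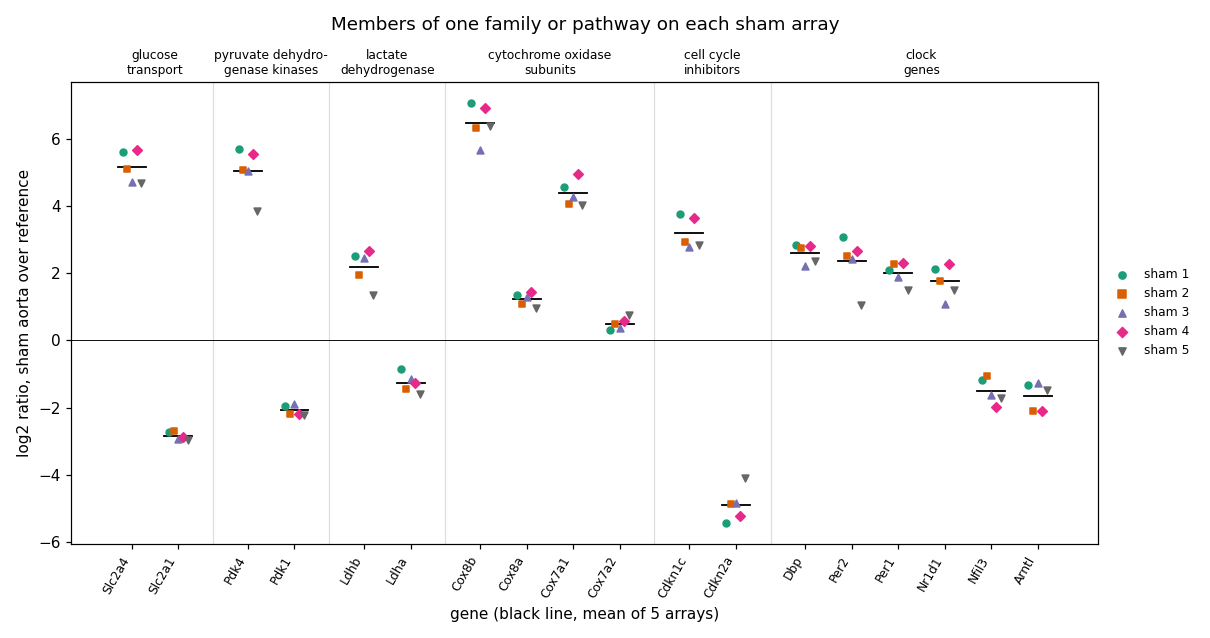
Log2 ratio of sham aorta over reference (vertical axis) on each of the 5 arrays for related members of glucose transport, pyruvate dehydrogenase kinases, lactate dehydrogenase, cytochrome oxidase subunits, cell cycle inhibitors and clock genes. Black lines are means. Slc2a4 (5.15), Pdk4 (5.05), Ldhb (2.19) and Cdkn1c (3.19) lie above 0 on all arrays, and Slc2a1, Pdk1, Ldha and Cdkn2a below 0 on all arrays.

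Genes of cell division were almost uniformly lower. Of 43 mitosis genes, 42 were lower and none higher (median -2.98), and of 36 genes of DNA replication, 34 were lower and none higher (median -2.24). Ccnb1 (cyclin B1, which starts mitosis) read -4.99, -3.74, -3.98, -4.33 and -3.16. Racgap1 (a protein of cytokinesis) averaged -4.37 ± 0.42, Cdt1 (which licenses origins) -4.04 ± 0.54, Mcm2 (a helicase subunit) -3.16 ± 0.36, Foxm1 (a factor that drives mitotic genes) -2.21 ± 0.28 and Pcna (the sliding clamp) -2.28 ± 0.18. Sham 1 was the farthest from 0 and sham 5 the nearest for the mitosis list (medians of -3.79 and -2.37), the 2 arrays with the most and the fewest red spots above background. Not called were Cenpf (-0.75 ± 0.49), which was not above background in red on any array, Tyms (-1.0 ± 0.37) and Gins3 (-0.80 ± 0.19), which missed the 2-fold limit. Cenpf was called lower with an offset of 16 (-1.11 against -1.21 for Tyms, then called too), with plain subtraction (-2.66) and on the deposited ratios (-3.58). Without sham 2 (-1.05), sham 3 (-1.05) or sham 5 (-1.10), Tyms was called lower.

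Many promoters of mitotic genes hold the CHR element, TTTGAA, through which the DREAM complex holds them silent in resting cells, and CCAAT boxes. On either strand of the same window, TTTGAA was found in 27 of the 36 mitosis genes with a RefSeq promoter (75%), against 20.2% of all genes, and CCAAT in 28 of them (77.8%), against 41.1%. The elements of the 4 genes with the lowest ratios among those with a match are shown, with the element in capitals, 5′ to 3′ on the strand of the gene (GRCm38.p6; all on the minus strand), at chr7:135716460-135716489 (Mki67), chr15:99651634-99651663 (Racgap1), chr2:69206172-69206201 (Spc25) and chr3:27153822-27153851 (Ect2).
Mki67: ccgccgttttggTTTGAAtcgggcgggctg
Racgap1: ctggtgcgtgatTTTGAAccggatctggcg
Spc25: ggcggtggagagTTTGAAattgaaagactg
Ect2: cgactggattttTTTGAAtcggaggcggca
Their ratios were -4.81 for Mki67, -4.37 for Racgap1, -4.12 for Spc25 and -3.92 for Ect2. A match in these windows is a description of the letters and was not tied to any binding.

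Inhibitors of the cell cycle did not move as 1 group, with 2 of 19 higher and 6 lower (a median of 0.06, which turned below that of all names without loess). Cdkn1c (p57) read 3.76, 2.92, 2.78, 3.66 and 2.84, and the growth arrest gene Gas6 averaged 3.79 ± 0.34. Cdkn1a (p21) was lower (-1.47 ± 0.13, with -0.48 and -0.34 on its other probes), Cdkn1b (p27) averaged 0.40 ± 0.25, and Ccnd1 was lower (-1.39 ± 0.16) where its relative Ccnd2 averaged 0.35 ± 0.30. Genes that build ribosomes were lower for 22 of 35 members with none higher (median -1.26), such as Nolc1 (-2.06 ± 0.20), Nop58 (-2.06 ± 0.18) and Npm1 (nucleophosmin, -1.76 ± 0.17). Few ribosomal proteins were called on the scale used here. Of 80 cytosolic members, 1 was higher and 5 lower (median -0.31), and of 77 mitochondrial members, 1 was lower (median -0.35). These medians depended on processing, and relative to the median of all names they reached -1.65 and -1.13 under other scalings. The lowest ribosomal protein was Rpl39l, a copy of Rpl39 found in testis, at -4.37 ± 0.99. Of the immediate early genes, 5 of 22 were higher and 6 lower (median -0.26). Ctgf (connective tissue growth factor) read 5.08, 4.91, 4.34, 3.50 and 3.19, and Myc, which drives growth, read -3.34, -3.18, -2.86, -3.21 and -2.87. Fos (-0.85 ± 0.26) and Egr1 (-0.32 ± 0.32) were not called.

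Clock genes went in both directions. Of 18 members, 9 were higher and 2 lower (median 0.98). Dbp read 2.84, 2.75, 2.23, 2.82 and 2.37, and Per2 read 3.09, 2.52, 2.42, 2.67 and 1.06. The period gene Per1 (2.02 ± 0.34), the repressors Nr1d1 (1.76 ± 0.49) and Nr1d2 (2.39 ± 0.30) and the factors Hlf (2.56 ± 0.42) and Tef (2.35 ± 0.24) were higher as well. Arntl (BMAL1), which these repressors shut off, was lower (-1.65 ± 0.42), and so was Nfil3 (-1.51 ± 0.38), which opposes Dbp. Clock itself averaged 0.37 ± 0.13 and was not called. The hour of tissue collection is not given in the sources used here, and its part in these ratios was not tested.

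Hox genes, which record position along the body, were higher for 7 of 31 members and lower for 2 (median 0.30). All 7 higher genes belonged to paralogue groups 2 to 7, with Hoxa3 highest (2.23, 2.0, 1.23, 2.18 and 2.0), followed by Hoxa7 (1.69 ± 0.38), Hoxb4 (1.46 ± 0.21), Hoxa5 (1.37 ± 0.42), Hoxb6 (1.18 ± 0.30), Hoxb5 (1.04 ± 0.27) and Hoxb2 (1.04 ± 0.21). Groups 8 to 10 held no called gene among 9 tested (median -0.09). Both lower genes belonged to the groups of the hind end. Hoxb13, not above background in red on any array, read -3.46, -1.91, -1.5, -2.76 and -0.78, and Hoxc11 averaged -1.03 ± 0.29. Groups 11 to 13 had a median of -0.99 over 4 genes, and 8 further Hox genes were too dim to test. The calls of Hoxb2 and Hoxb5 were lost without sham 1 (0.98 and 0.97) or sham 4 (0.99 and 0.97), and that of Hoxc11 without sham 1 (-0.92) or sham 4 (-0.98). With median centring none of the 7 higher genes was called, and Hoxa3 was the highest of them at 0.62. Which of the cell lines express Hox genes is not given, so a ratio near 0 can be a low or a high level in both.

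**Figure D5:**
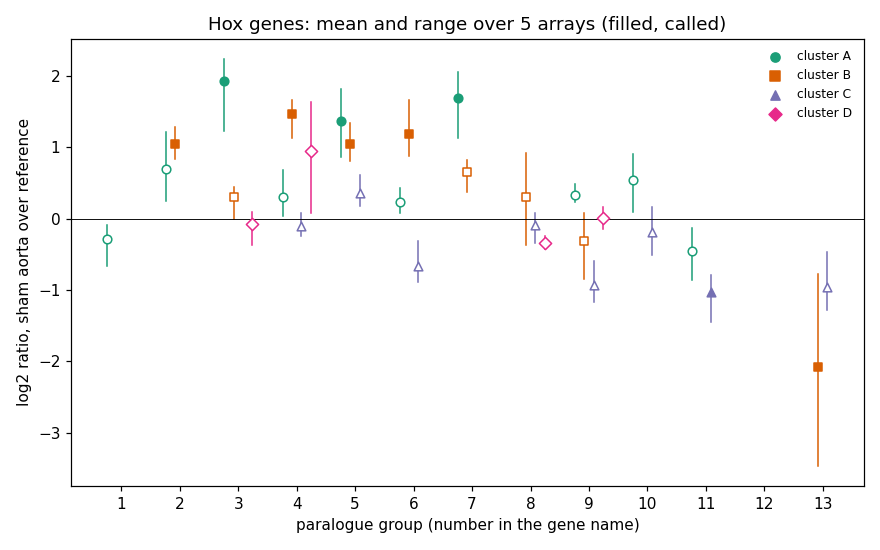
Log2 ratio of sham aorta over reference (vertical axis) for the 31 Hox genes tested, by paralogue group (horizontal axis) and cluster (symbol). Symbols are means of 5 arrays, lines the range over the arrays, and filled symbols are called genes. The 7 genes called higher lie in groups 2 to 7 and those called lower in groups 11 and 13.

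Of the 3215 lincRNA regions tested, 143 were higher (4.45%) and 127 lower (3.95%), against 16.1% and 11.2% of the RefSeq genes. Fewer of the regions were bright, with 1076 above background in both colours on all 5 arrays, against 14853 of all 24503 names. Ratios of dim names are compressed by the offset, and the part of brightness in these shares was not tested. The highest ratio among regions above background in both colours lay within the Hoxb cluster, between the probes of Hoxb13 and Hoxb9. This region, chr11:96111499-96126224 on mm9, read 5.55, 5.46, 4.53, 5.98 and 5.60 on its reverse strand (chr11:96111499-96126224_R), where another probe averaged -0.20. Its nearest probes were those of Gm11538 and Hoxb9, the latter with a ratio of -0.31 ± 0.35. The lowest, chr9:14460976-14488051 between probes of Amotl1 and Fut4, averaged -3.97 ± 0.54. Of the imprinted genes, 6 of 15 were higher and 2 lower (median 0.69). The noncoding Meg3 was higher (3.1 ± 0.34) while Dlk1, its neighbour in the same imprinted cluster, was among the lowest genes of all. H19 was lower with a wide spread (-1.93, -2.45, -1.24, -0.10 and -1.66), a call lost without sham 1 (-1.36), sham 2 (-1.23) or sham 5 (-1.43). Its neighbour Igf2 averaged 0.01 ± 0.14 and was dim in both colours (log2 signal 7.05 in red and 7.04 in green).

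Lists of tissues outside the wall compared their genes with the reference, and a lower ratio does not mean that a gene was absent from the aorta. Krt18, for instance, was above background in red on all 5 arrays. Mesothelium was lower for 5 of 7 genes (median -1.65), including Wt1 (-3.62 ± 0.72) and Upk3b (-1.65 ± 0.41). Epithelium was lower for 10 of 17 (median -1.07), with Krt18 (-3.42 ± 0.33), Krt19 (-3.94 ± 0.43) and Epcam (-3.20 ± 0.94), and higher for Cldn3 alone (1.66 ± 0.74). Above background in both colours on all 5 arrays were 1 of the 7 mesothelial and 5 of the 17 epithelial genes. Of the liver list, Alb, Apoa1, Ttr and 8 others were too dim to test, and 5 of the 10 tested were higher, led by Rbp4 (5.25 ± 0.39) and Trf (4.60 ± 0.41), which fat and other tissues also make, while the fetal gene Afp was lower (-2.71 ± 0.75). Kidney tubule genes were higher for Aqp1 alone (2.10 ± 0.30; also a water channel of capillary endothelium) and lower for Pax8 alone (-1.34 ± 0.61), and none of 6 adrenal genes was called, with Star at -0.08 ± 0.12. Star was dim in both colours, with a log2 signal of 6.88 in red and 6.96 in green. Heart muscle was higher for 5 of 11 members (median 0.71), among them Myl2, which read 3.37, 0.58, 2.43, 4.07 and 2.77 in the order of the skeletal muscle genes except on sham 5. Without sham 5 the heart median was 0.35. The lists of pluripotent cells (1 of 13 lower, median 0.03) and germ cells (2 of 9 lower, median -0.40) had no member higher, and both medians changed side of the median of all names under other scalings. Of 16 genes often used as controls, 3 were higher, 3 lower and 10 not called, or 18.8% in each direction against 13.2% and 10.2% of all names. Actb (1.11 ± 0.25, with -0.09 on another probe) and Sdha (1.68) were higher, though both turned below 0 with median centring, and Tfrc (-1.27 ± 0.25), Gusb (-1.30 ± 0.10, with 0.53 on another probe) and Pgk1 (-1.76 ± 0.32) were lower, while Gapdh averaged -0.39 ± 0.25.

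Over names above background in red on all 5 arrays, the median SD between arrays was 0.23. The 5 names with the largest spread were BC034637 (SD 2.17), the lincRNA region chr13:64381475-64415350 (2.05), Phf1 (2.03), the unnamed probe A_55_P1981992 (1.99) and Ttn (1.94). The first 4 were low on sham 3 alone. Phf1, for instance, read 0.09, 0.63, -4.18, 0.34 and 0.29. At these 4 spots the red local background of sham 3 was between 796 and 1360, against a median of 39 on that array, and the deposited ratios, which use a smoothed background, put sham 3 within the range of the other arrays for all 4 (0.26 for Phf1, against 0.03 to 0.51). Another Phf1 probe away from this patch read -0.26 on sham 3, against -0.64 to -0.10 elsewhere. Spots with a local background over 2 times their array's median carried 88 tested names, and leaving them out changed the call of 3. Without sham 3, BC034637 was called higher (1.95). With these 4 names set aside, the most variable names were Ttn, Slc6a2 (SD 1.87), Ckm (1.80) and Ngfr (1.77), the nerve and muscle genes described above. This second choice was made after the values were seen.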

How the data were processed

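The 5 sham arrays were analysed from the deposited scanner output. Per the file headers, Feature Extraction 10.7.3.1 gave for each spot mean red and green intensity, local background and a log10 ratio of red over green, and the authors deposited a table of processed log2 ratios for the same arrays. RNA integrity was checked and poorly hybridised arrays were removed by the authors before deposit. The study's methods also describe dropping outliers by clustering and principal components, without giving how many. Agreement between the arrays is therefore that of the arrays kept.

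From the intensity values, background was corrected with normexp (offset 50), ratios were normalized within each array by loess (control spots and outlier spots at weight 0), spots of a probe were averaged, and a gene name was represented by its brightest tested probe of 55681. A probe was tested where red or green was well above background on at least 3 arrays. The mean log2 ratio was tested against 0 with limma 3.58.1 (R 4.3.3, data.table version 1.17.8; intercept only, eBayes, Benjamini-Hochberg), called at an adjusted p under 0.01 and at least 2-fold, a procedure tested on simulated data. The test leaves out the spread of the reference RNA. Each array carried a separate aorta. Bounds were taken on channel values after loess and Aquantile.

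The lists and members were chosen with earlier results of these data known. Named were 4 markers, the 10 highest and 10 lowest RefSeq genes above background in both colours on all arrays, up to 8 in each direction above background in 1 colour only, the highest, lowest and opposing members of each list, and the 5 names with the largest SD. Other members named were chosen after their values were seen. Alternatives were another offset, plain subtraction, median centring, no normalization, the deposited ratios, that table, other filters, probe rules and thresholds, and each array left out. Promoters came from RefSeq (GRCm38.p6), 250 bases before to 50 after each start. Probe positions are on mm9. The number of arrays limits the precision. Some members of the lists are counted but not reported by name here.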

Additional observations from a re-analysis of the deposited data

Results flagged for a closer look

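A single array stood apart from the other 4 in 17 of 315 values examined, by the gap between the extreme array and its neighbour relative to the whole range (5.40%, where chance gives about 1 in 20 for independent values). The values examined share genes and include names picked for their large spread, so this share cannot be held against that rate. Sham 3 stood apart for 9 values, sham 5 for 4, sham 4 for 3 and sham 1 for 1. On sham 3 the log2 ratio lay below the other arrays for A_55_P1981992 (-3.83), BC034637 (-2.84) and Phf1 (-4.18), the names on spots of high local background, and for Sh3bgr (5.72, others at least 6.87), Ramp2 (3.55, others at least 4.29), Nos3 (3.07, others at least 3.62), Meg3 (2.51, others at least 3.17), Hoxa3 (1.23, others at least 2.0) and Ccnd2 (-0.17, others at least 0.41). On sham 5 it lay below the others for Dbh (0.74, others at least 3.04), Sdha (0.95, others at least 1.75), Vcl (0.26, others at least 1.37) and Star (-0.29, others at least -0.06). Sham 1 was high for Cidea (6.71, others at most 5.99) and sham 4 for Eno3 (0.54, others at most -1.45). Replicate probes varied more on sham 4 in red (17.1%, others at most 7.90%) and in green (16%, others at most 4.90%).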

How the results depend on the processing

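The counts of 3243 higher and 2497 lower names depended most on how the arrays were normalized. Leaving out each array in turn gave between 2945 and 3458 higher and between 2361 and 2630 lower. Median centring gave 1061 and 8374 (11.2% of calls higher, against 56.5%), and no normalization 988 and 9985 (9.00%). The deposited ratios with zero and slope set by the spike-ins gave 10237 and 1014 (91.0%). The deposited log ratios gave 4252 and 4770 (47.1%), the authors' processed ratios 4289 and 4746, and plain background subtraction 4346 and 3882. An adjusted p under 0.01 at any ratio gave 6290 and 6583, a limma test against a 2-fold difference (treat) 1622 and 1035, and a 4-fold limit 1261 and 594 (68.0%). An offset of 16, both filters on dim probes, the mean of probes, averaging the arrays of 1 slide and leaving out spots of high local background stayed within 1.5 times. The spike-in, slide and local background alternatives were chosen after seeing the data.

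Relative to the median of all names, 4 list medians changed side. Oxidative phosphorylation, cell cycle inhibitors and germ cells did so with median centring and without normalization, and the pluripotent list with the spike-ins, the deposited ratios, the authors' processed ratios and plain subtraction. In absolute value, these named genes changed sign with a call on at least 1 of both scales. Median centring turned Actb (-1.17), B2m (-1.498), Cox8a (-0.92), Flt1 (-0.0891), H2-K1 (-0.30), Hoxb2 (-0.0335), Hoxb6 (-0.0762), Ifit3 (-0.15), Sdha (-0.0645) and Vcl (-0.24). No normalization turned Actb (-1.35), Actn1 (-0.15), B2m (-1.68), C3 (-0.10), Ccnd2 (-1.40), Cdkn1b (-1.33), Col1a1 (-0.12), Col1a2 (-0.0303), Cox7a2 (-1.46), Cox8a (-1.10), Flt1 (-0.27), H2-K1 (-0.48), Hoxb2 (-0.21), Hoxb4 (-0.0198), Hoxb5 (-0.14), Hoxb6 (-0.25), Ifit3 (-0.33), Loxl1 (-0.16), Ppargc1a (-0.0272), Ptgir (-1.33), Sdha (-0.24), Tpm1 (-0.13) and Vcl (-0.41). The spike-in setting turned A_55_P1981992 (2.28), Ldha (0.25), Phf1 (1.88) and Twist2 (0.25). Values with no call on either scale, such as Cox7a2 (-1.28 with median centring), crossed 0 too. Other named genes lost their call without a change of sign, 47 with median centring, 24 without normalization and 31 with the spike-in setting. Those that gained a call in the same way numbered 12, 15 and 15. Among those lost with median centring were Col1a1 (0.06), Col3a1 (0.87), Fbn1 (0.50), Pdgfrb (0.87), Dbp (0.72) and Per1 (0.32). Median centring and no normalization move zero by construction. The spike-in setting also changes the slope and the background correction, and the cause was not tested. The mean of probes turned Kdr (1.98), whose probes differ.

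No paired analysis was possible because only 1 group of samples enters the test. A random block for the slide was not run, as 5 arrays on 4 slides gave no estimate of a correlation within slides for any of 500 names tried. Of 5495 names called on the 3 arrays outside the shared slide, 5492 had the same sign on it. Ratios of dim genes are compressed by the offset, and signal over background was lowest on sham 5. Equal dye orientation on all arrays means that a dye bias cannot be told apart from a difference between aorta and reference.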
